A study of Mus musculus with 8 samples.

Results

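The Mediator and general transcription factor genes are those whose proteins recruit RNA polymerase II to promoters. They were taken here as all probe sets with a single gene symbol, in the platform annotation, that begins with Med and a digit, with Gtf2 or with Taf and a digit, or that is Tbp. The rule found 134 of 45037 probe sets, with 70 of 18193 symbols: 31 Mediator, 15 Gtf2, and 24 TBP or Taf symbols. Mediator is a large complex, built of a head, a middle and a tail around the backbone subunit Med14, that carries signals from DNA-bound activators to the polymerase, and a separable kinase module can dock on it. TFIID, made of the TATA-binding protein TBP and its associated factors (Taf proteins), binds core promoters, and TFIIA, TFIIB, TFIIE, TFIIF and TFIIH (Gtf2 genes) complete the preinitiation complex. The egg is transcriptionally silent, so these proteins are then made from stored maternal mRNA.

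Polysomal RNA, the mRNA bound to clusters of ribosomes, was measured on 8 single-colour arrays of mouse eggs and embryos whose strain, genotype and age the labels do not name. The 4 one-cell arrays carried embryos kept with α-amanitin, which blocks RNA polymerase II, and the 4 MII arrays carried oocytes arrested at metaphase II, with no such treatment named. Every array pooled 160 to 500 eggs or embryos and its RNA was amplified in 2 rounds. Stage and inhibitor changed together and cannot be told apart, and because total RNA was not analysed here, less mRNA and less loading onto ribosomes cannot be told apart either. Replicates are separate batches by the design text, and the p-values of genes set the difference between the groups against the spread between batches.

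The arrays differed before any gene was compared. The 18S ribosomal RNA control probe set read between 10688 and 66754 in one-cell embryos and between 1583 and 2971 in MII oocytes, an 11.3-fold difference without overlap (two-sided exact permutation p = 0.0286, which is the lowest value possible here; 0.0857 adjusted over 6 array measures). The ratio of the 3′ to the 5′ actin control was 65.9 on MII array 2 and 4.49 to 11.6 on the other 7 arrays. One-cell array 1 stood apart within its group. Its median intensity was 71.8, with 27.8 to 37.9 for the rest of its group and 26.9 to 33.8 for the MII group, and its hybridization controls (spiked RNAs, geometric mean) read 14879, where the rest of the one-cell group read 857 to 3718 and the MII group 905 to 1364. All 10 oocyte markers found on the array (such as Zp3, Gdf9 and Oosp1) lay above the median of every array. Their levels were not steady: of the 10, 3 passed as higher in one-cell embryos (Zp2, Bmp15 and Nlrp5) and 3 as lower (Gdf9, Zar1 and H1f8). Gdf9 changed by -2.17 ± 0.43 (adjusted p = 0.00096) and Nlrp5 by 1.09 ± 0.30 (adjusted p = 0.0111). Of all 12359 genes 20.1% were called higher and 14.7% lower. The 13 markers of cumulus and granulosa cells summed to between 519 and 1831 in one-cell embryos and between 625 and 762 in MII oocytes, and the 7 sperm markers to 169.8 to 454 and to 153 to 243.9. The highest one-cell sums, 1831 and 454, were both those of one-cell array 1. Of 8 tested cumulus and granulosa markers 1 passed, as higher in one-cell embryos (Cyp11a1, 1.26 ± 0.43, adjusted p = 0.032). Of 3 tested sperm markers, Prm2 passed as higher (1.96 ± 0.39, adjusted p = 0.00103) and Akap4 as lower (-1.77 ± 0.41, adjusted p = 0.00333), with Akap4 under the median of every one-cell array. The part of these differences in the results below was not tested.

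A probe set was tested if 4 or more of the 8 arrays read it above their own median, as was true of 100 of the 134, and each gene was represented by its brightest tested probe set. This left 64 genes: 30 Mediator, 13 Gtf2, and 21 TBP or Taf genes. A gene that is bright in only 1 group can pass this filter through that group. Gtf2e1, Gtf2i, Med9os, Taf1c, Taf7l and Taf7l2 were not tested, and their 10 probe sets read between 0.1 and 100.9. Taf9 and Gtf2h2 were not analysed here. Changes are given as one-cell minus MII on log2(intensity + 10) with the SE of the limma fit. Because of the offset they understate the change of dim genes, and adjusted p-values are limma's, over all 23336 probe sets tested, with 0.05 as the threshold.

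Mediator genes changed in both directions. Of 30 tested, 8 were higher and 9 lower in one-cell embryos (26.7% and 30%), where 20.1% and 14.7% of all 12359 genes were called higher and lower. Together 56.7% of Mediator genes passed, against 34.8% of all genes. That share was 50% after quantile normalization (31.7% of all genes), 36.7% with arrays centred on their medians (25.9%), 43.3% with the hybridization controls as a covariate (28.1%) and 46.7% at an adjusted p under 0.01 (23.6%). Of 13 Gtf2 genes 1 was higher and 3 were lower, and of 21 TBP and Taf genes 3 were higher and 5 lower, so that 35.3% of these 34 genes passed, close to the share of all genes. The one-cell values lay wholly above the MII values in 8 Mediator genes and in 4 of the 34 others, beside 19.9% of all genes, and wholly below in 9 and in 9, beside 15.3%. The share of all genes called was higher among bright genes: with only those above the 75th percentile kept, 64.3% of 28 Mediator genes and 54.1% of all genes passed. No test sets the classes against each other.

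**Figure D1:**
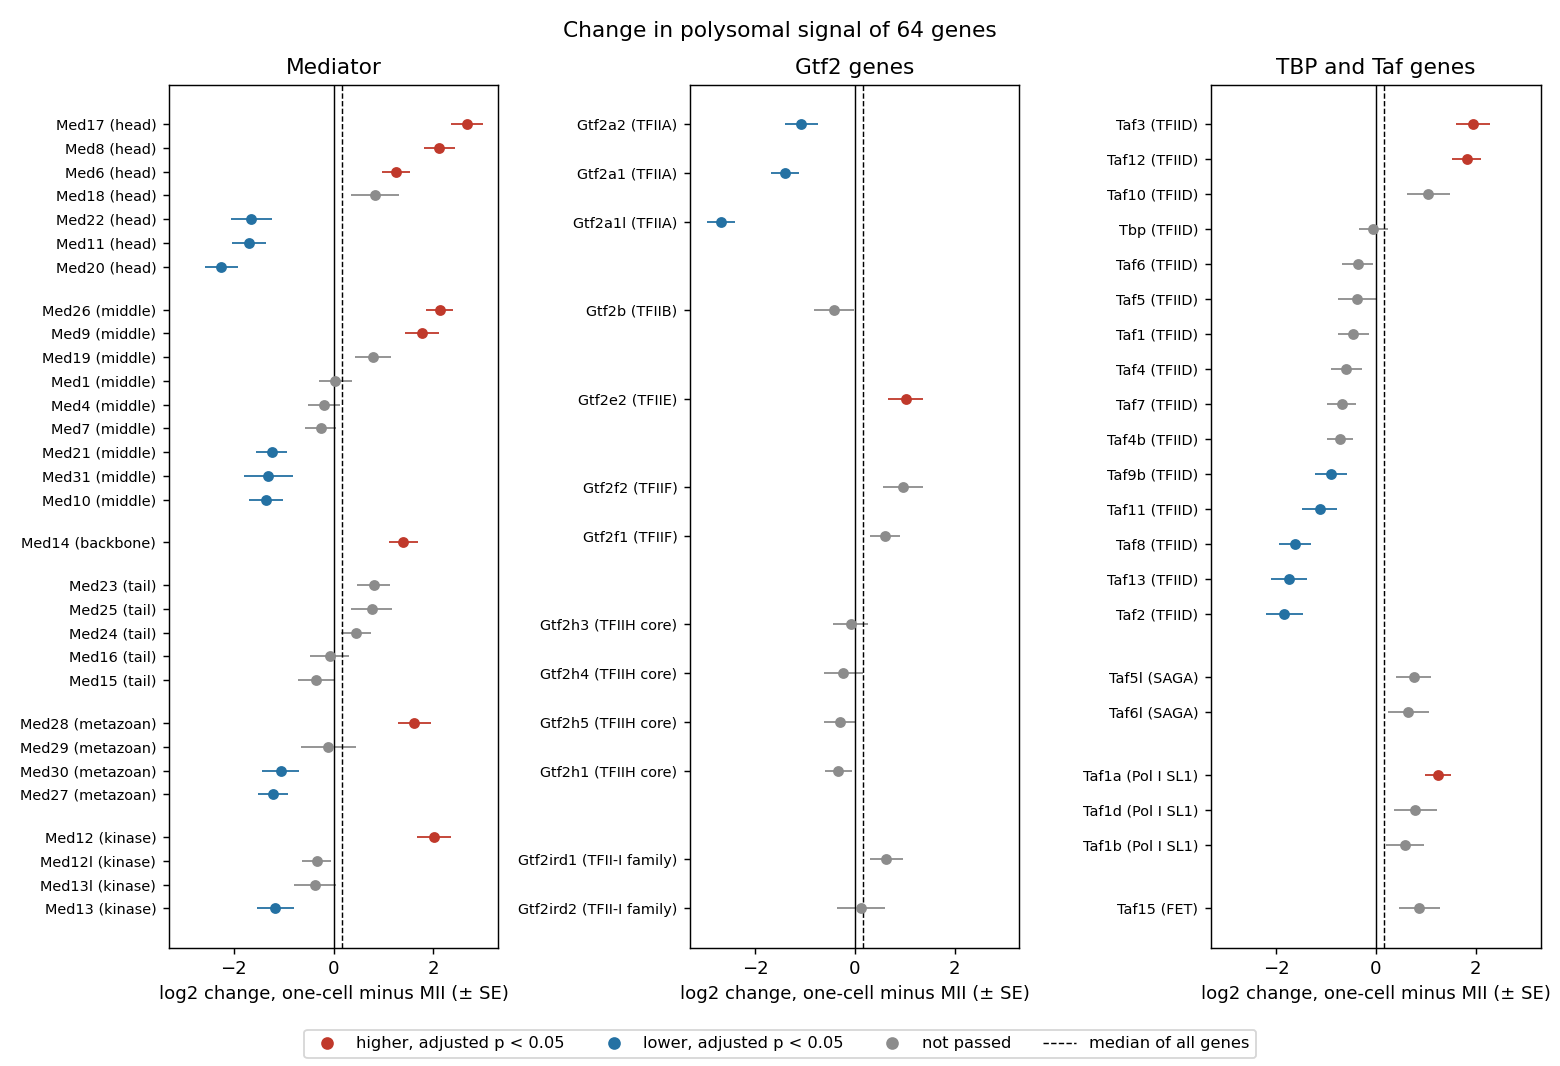
Log2 change (one-cell embryo minus MII oocyte, ± SE of the limma fit, 4 arrays per group) of the 64 tested genes by subcomplex; red and blue points passed as higher and lower at an adjusted p under 0.05, grey points did not pass, and the dashed line is the median of all genes (0.16). Changes run from -2.68 (Gtf2a1l) to 2.67 (Med17), with Mediator genes spread to both sides and all 3 TFIIA genes below 0.

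Rises and falls left the class medians near 0. The median change was -0.09 for Mediator, -0.23 for Gtf2 and -0.36 for TBP and Taf genes, beside 0.16 for all genes, which puts them at -0.25, -0.39 and -0.53 relative to all genes. The Mediator and the TBP and Taf values moved most with one-cell array 1 left out, to relative medians of -0.02 and -0.03, and the other way without one-cell array 2, to -0.39 and -0.70. The Gtf2 value was -0.31 without one-cell array 1 and moved most without one-cell array 3, to -0.10. On one-cell array 1 the median TBP or Taf gene lay at -0.73 from its MII mean (log2) while the median of all genes lay 0.55 above. On the other one-cell arrays TBP and Taf genes lay between -0.10 and 0.04. After quantile normalization the relative medians were 0.04, -0.11 and -0.05, and the median of all genes itself was -0.10 after quantile normalization and -0.16 with arrays centred on their medians, against 0.16 as deposited. The typical change without regard to sign was 1.19 for Mediator, 0.60 for Gtf2 and 0.79 for TBP and Taf genes, against 0.67 for all genes. These values were not compared at like brightness, and the offset understates changes of dim genes. The filter at the 75th percentile kept 28 of 30 Mediator genes but 7139 of all 12359 genes.

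**Figure D2:**
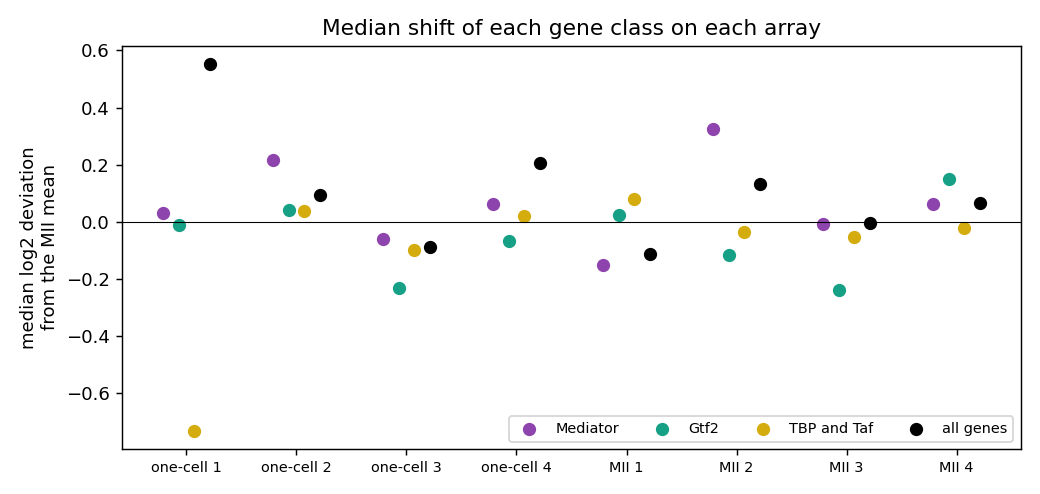
For each array, the median over a class of log2(intensity + 10) minus the gene's mean over the MII arrays (for an MII array, over the other 3 MII arrays). On one-cell array 1 the median of all genes lies at 0.55 and that of TBP and Taf genes at -0.73; on the other 7 arrays all classes lie within -0.24 and 0.32.

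The Mediator head, which contacts the polymerase, split into rises and falls: of 7 subunits 3 rose, 3 fell and 1 did not pass. Med17, the head's central scaffold, gave 1216, 1357, 2510 and 1447 units on the one-cell arrays, against 238.9, 178, 384.5 and 194 on the MII arrays. Every one-cell array lay well above the highest MII array, and the change of 2.67 ± 0.32 was the largest rise among the 64 genes (adjusted p = 1.09e-05). Med8 read 400.8, 227, 257 and 180.0 units in one-cell embryos, against 54.4, 46.9, 47.1 and 56.7 in MII oocytes. The oocyte values were tight and the groups did not overlap (2.12 ± 0.31, adjusted p = 7.51e-05), while the other tested probe set of Med8 did not pass (0.80 ± 0.57). Med6 read 337, 425.9, 338 and 443 units in one-cell embryos, against 121, 133, 177 and 198 in MII oocytes. It rose by 1.26 ± 0.28 (adjusted p = 0.00228), and its other tested probe set rose as well (1.49 ± 0.28). With arrays centred on their medians Med6 did not pass (0.94 ± 0.36, adjusted p = 0.0732).

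The falls in the head were those of Med20, Med22 and Med11. Med20, which pairs with Med18 in the movable jaw, gave 1822, 2698, 2037 and 1859 units on the one-cell arrays, against 7900, 12457, 8614 and 11342 units on the MII arrays. The groups lay far apart, the change was -2.25 ± 0.32 (adjusted p = 6.33e-05), and the other tested probe set fell further (-3.14 ± 0.39, adjusted p = 1.49e-05). Med11 read 366.5, 147, 132.5 and 152 units in one-cell embryos, against 674.9, 828, 446.6 and 561 units in MII oocytes. It fell by 1.69 ± 0.34 in log2 units (adjusted p = 0.00103), and one-cell array 1 was the highest of its group. Med22, known as the partner of Med11, fell to 932 ± 609 units in one-cell embryos, against 2497 ± 508 units in MII oocytes (SD, n = 4 each), a change of -1.65 ± 0.42 (adjusted p = 0.00584). Med22 no longer passed when the hybridization controls were a covariate (-0.86 ± 0.38, adjusted p = 0.118). Med18 varied within both groups, from 362 to 1180 units in one-cell embryos and from 131 to 611.5 units in MII oocytes, and did not pass (0.83 ± 0.48).

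In the middle module 2 of 9 subunits rose, 3 fell and 4 did not pass. Med26, a metazoan subunit that links Mediator to elongation factors, gave 742, 533.5, 553.6 and 597 units on the one-cell arrays, against 97.8, 164, 130 and 138 units on the MII arrays. The one-cell values were close together and clear of the oocyte values (2.12 ± 0.27, adjusted p = 2.12e-05), and the other probe set of Med26 rose too (1.04 ± 0.36). Med9 read 258, 283, 255 and 514 units in one-cell embryos, against 51.6, 145, 72.2 and 92.9 units in MII oocytes, a rise of 1.77 ± 0.34 (adjusted p = 0.000852). One-cell array 4 was the highest of its group, and the groups did not overlap.

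Med10, Med21 and Med31, which in yeast belong to the conserved part of the middle module, were the falls there. Med10 averaged 1882 ± 585 units in one-cell embryos and 4735 ± 1106 units in MII oocytes (SD, n = 4 each), a change of -1.36 ± 0.34 (adjusted p = 0.00588). Med21 averaged 238.7 ± 84.1 units in one-cell embryos and 568.8 ± 127 units in MII oocytes (-1.25 ± 0.30, adjusted p = 0.00467). The groups of both genes were separate, but Med10 did not pass when the hybridization controls were a covariate (-0.93 ± 0.34, adjusted p = 0.0596). Med31 gave 776, 4292, 3752 and 3893 units on the one-cell arrays, against 5994, 9294, 4457 and 7439 units on the MII arrays. One-cell array 1 read far below the rest of its group, and the call was marginal (-1.31 ± 0.48, adjusted p = 0.0484). Med31 was not called without one-cell array 1 (-0.72 ± 0.28, adjusted p = 0.0547) or 4 (-1.49 ± 0.54, adjusted p = 0.0513), nor without MII array 1 (-1.35 ± 0.55, adjusted p = 0.0814), 2 (-1.14 ± 0.53, adjusted p = 0.122) or 4 (-1.25 ± 0.54, adjusted p = 0.101). It was -0.83 ± 0.43 after quantile normalization (adjusted p = 0.17), -0.48 ± 0.47 with the hybridization covariate (adjusted p = 0.495) and -1.62 ± 0.68 with centred arrays (adjusted p = 0.101).

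Med1, the subunit that nuclear receptors bind, showed how much a gene's value can turn on the probe set. Its brightest probe set read 360, 707, 823 and 415 units in one-cell embryos, against 396, 437.6, 712 and 641 units in MII oocytes, with overlapping groups (0.03 ± 0.32). Another probe set, which lay above the array median on only 2 of the 4 MII arrays, rose by 3.25 ± 0.46 (adjusted p = 4.9e-05), and the remaining tested ones did not pass (0.70 ± 0.46 and -0.81 ± 0.31). Med19 behaved likewise, with 0.79 ± 0.36 for its brightest and 1.67 ± 0.42 (adjusted p = 0.00538) for its other probe set. That other probe set lay above the array median on 3 one-cell arrays and on only 1 MII array. Its MII values were 46.7, 7.9, 24.9 and 30.4 units. Med4 (-0.19 ± 0.33) and Med7 (-0.26 ± 0.31) did not pass.

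The backbone subunit Med14 rose. Its brightest probe set gave 443, 573, 594 and 752.5 units on the one-cell arrays, against 144, 267, 234 and 233 units on the MII arrays (1.40 ± 0.29, adjusted p = 0.00134), a call lost with arrays centred on their medians (1.08 ± 0.40, adjusted p = 0.0657). All one-cell arrays lay above all MII arrays. The other 3 tested probe sets of Med14 did not pass (0.03 to 0.89), and their mean with the brightest changed by 0.80 ± 0.26 (adjusted p = 0.0289).

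None of the 5 tail subunits, the part that meets activators, passed in the limma test of their brightest probe sets: Med15 (-0.35 ± 0.36), Med16 (-0.08 ± 0.39), Med23 (0.80 ± 0.33), Med24 (0.44 ± 0.30) and Med25 (0.76 ± 0.42). Their adjusted p-values were 0.514, 0.909, 0.0733, 0.294 and 0.189. Med25 again depended on the probe set: the brightest read 975, 1011, 503 and 2015 units in one-cell embryos, against 386, 1249, 444 and 552.5 units in MII oocytes, and the other rose by 1.36 ± 0.27 (adjusted p = 0.0011) with separate groups. Averaged over both, Med25 rose by 1.06 ± 0.27 (adjusted p = 0.00818).

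Of the 4 subunits grouped here as metazoan subunits of the head or tail, Med28 rose, Med27 and Med30 fell, and Med29 did not pass. Med28 gave 4651, 8274, 5974 and 5175 units on the one-cell arrays, against 2128, 1361, 2014 and 2256 units on the MII arrays. It rose by 1.62 ± 0.32 (adjusted p = 0.00103) and by 2.53 ± 0.29 at its other probe set, and the groups did not overlap at either, but with centred arrays the brightest did not pass (1.30 ± 0.47, adjusted p = 0.0594). Med27 averaged 435 ± 135 units in one-cell embryos and 1014 ± 299 units in MII oocytes (SD, n = 4 each; -1.21 ± 0.31, adjusted p = 0.00579). Med30 averaged 3892 ± 1372 units in one-cell embryos and 7725 ± 1347 units in MII oocytes (-1.06 ± 0.37, adjusted p = 0.0366). Its call was lost when any single MII array was left out (adjusted p from 0.0501 to 0.103, changes from -1.14 to -0.95) or one-cell array 4 (-1.13 ± 0.42, adjusted p = 0.0605), and after quantile normalization (-0.53 ± 0.26, adjusted p = 0.144), the hybridization covariate (-0.52 ± 0.33, adjusted p = 0.279) or centring (-1.38 ± 0.54, adjusted p = 0.0791).

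In the kinase module, which holds back Mediator when docked, the paralogs of a pair differed in their calls at their brightest probe sets. Med12 read 431, 240.0, 191 and 380 units in one-cell embryos, against 58.8, 104, 43.6 and 69.6 units in MII oocytes, a rise of 2.00 ± 0.34 (adjusted p = 0.000285). Its paralog Med12l read 277, 183.5, 239 and 176 units in one-cell embryos, against 208, 385, 301 and 235 units in MII oocytes, and did not pass (-0.34 ± 0.29). Only Med12 had separate groups here. The difference between their changes was not tested.

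Med13 gave 146, 362, 359 and 637 units on the one-cell arrays, against 681, 969, 696 and 727 units on the MII arrays, a fall of 1.17 ± 0.36 in log2 units (adjusted p = 0.0207) that was not called without MII array 2 (-1.05 ± 0.40, adjusted p = 0.0569). It was also lost with the hybridization covariate (-0.74 ± 0.40, adjusted p = 0.204), with centred arrays (-1.48 ± 0.53, adjusted p = 0.0588) and averaged over probe sets (-0.79 ± 0.29, adjusted p = 0.0544). Its other 3 tested probe sets did not pass (-0.78 to -0.54). Med13l read 1006, 2074, 2804 and 3947 units in one-cell embryos, against 1741, 4922, 2645 and 2920 units in MII oocytes, with overlapping groups (-0.38 ± 0.42), while its other probe set fell (-1.08 ± 0.29, adjusted p = 0.00915). Averaged over probe sets Med13l was close to Med13 and was not called either (-0.73 ± 0.28, adjusted p = 0.064). The difference between Med13 and Med13l was not tested. The kinase itself, Cdk8 (-0.19 ± 0.36), and its cyclin, Ccnc (0.34 ± 0.29), did not pass.

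**Figure D3:**
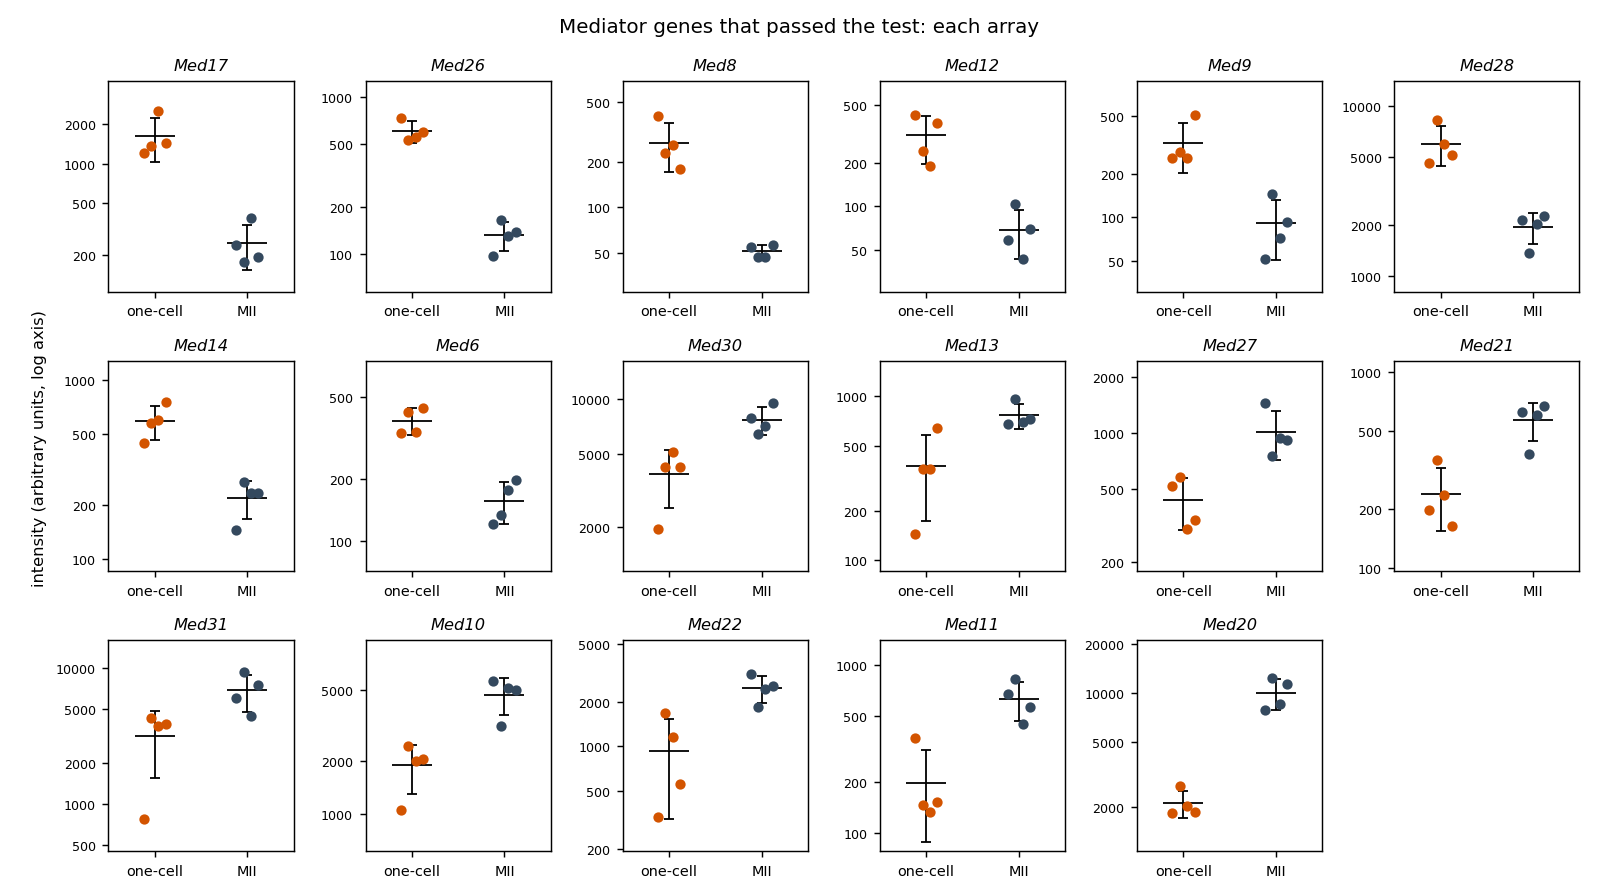
Intensity on each array (points, arbitrary units, log axes that differ between panels), with the mean and SD of 4 arrays (black), for the 17 Mediator genes that passed the test, from the largest rise to the largest fall. The 4 one-cell arrays lie above the 4 MII arrays in the 8 genes from Med17 to Med6 and below them in the 9 genes from Med30 to Med20.

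All 3 measured genes of TFIIA, the factor that steadies TBP on DNA, were lower in one-cell embryos. Gtf2a1l, a germ-cell form of the large TFIIA subunit, gave 156, 211, 137.5 and 116 units on the one-cell arrays, against 1304, 844, 1207 and 827.5 units on the MII arrays. No other of the 64 genes fell as far (-2.68 ± 0.29, adjusted p = 3.9e-06), and the groups were far apart. Gtf2a1, the general form of the same subunit, read 376, 585, 682 and 686.3 units in one-cell embryos, against 1483, 1512, 1686 and 1386 units in MII oocytes. It fell by 1.40 ± 0.28 in log2 units (adjusted p = 0.00109) and at a second probe set by 1.65 ± 0.27, while the remaining tested one did not pass (0.84 ± 0.39).

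Gtf2a2, the small TFIIA subunit, gave 350.0, 945, 1010 and 664 units on the one-cell arrays, against 1606, 1372, 1251 and 1639 units on the MII arrays (-1.07 ± 0.33, adjusted p = 0.0199). One-cell array 1 was the lowest, and the groups did not overlap. The call of Gtf2a2 was lost without MII array 1 (-1.03 ± 0.37, adjusted p = 0.0517) or 4 (-1.02 ± 0.38, adjusted p = 0.0541) or one-cell array 4 (-1.06 ± 0.38, adjusted p = 0.0512), and after quantile normalization (-0.96 ± 0.34, adjusted p = 0.0507). Gtf2a2 was -0.48 ± 0.30 with the hybridization covariate (adjusted p = 0.26) and -1.39 ± 0.53 with centred arrays (adjusted p = 0.0722).

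Gtf2b, which bridges TBP and the polymerase, read 2450, 9489, 6115 and 5912 units in one-cell embryos, against 6756, 7313, 6194 and 8676 units in MII oocytes, and did not pass (-0.41 ± 0.41). Gtf2e2, the small subunit of TFIIE, gave 176, 361, 444 and 245 units on the one-cell arrays, against 168, 91.3, 209.6 and 109 units on the MII arrays. It was the 1 Gtf2 gene called higher (1.02 ± 0.35, adjusted p = 0.0326), although its groups overlapped. The call was lost without MII array 2 (0.84 ± 0.37, adjusted p = 0.0971) or 4 (0.92 ± 0.39, adjusted p = 0.0893) or one-cell array 2 (0.92 ± 0.39, adjusted p = 0.0866) or 3 (0.82 ± 0.36, adjusted p = 0.0999), and after quantile normalization (0.54 ± 0.40, adjusted p = 0.352) or centring (0.70 ± 0.49, adjusted p = 0.323).

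The TFIIF subunits, which escort the polymerase to the promoter, did not pass at their brightest probe sets. Gtf2f1 read 553, 353, 285.5 and 459 units in one-cell embryos, against 306, 230.5, 185 and 351 units in MII oocytes (0.60 ± 0.30, adjusted p = 0.15). Its other probe set gave 1137, 511, 631 and 601 units on the one-cell arrays, against 36.0, 44.8, 44.1 and 78.3 units on the MII arrays. There the rise was 3.56 ± 0.32 (adjusted p = 9.14e-07), the largest of all 100 tested probe sets, and averaged over both Gtf2f1 rose by 2.08 ± 0.27 (adjusted p = 5.03e-05). Gtf2f2 read 111, 56.5, 66.1 and 51.9 units in one-cell embryos, against 28.6, 20.9, 24.3 and 54.0 units in MII oocytes (0.96 ± 0.40, adjusted p = 0.08).

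Of the TFIIH core, whose helicases open the DNA, Gtf2h1 (-0.33 ± 0.27), Gtf2h3 (-0.08 ± 0.35), Gtf2h4 (-0.23 ± 0.39) and Gtf2h5 (-0.29 ± 0.32) did not pass. Gtf2h1 read 631.5, 425.5, 584 and 416 units in one-cell embryos, against 752, 564, 560.5 and 689 units in MII oocytes, with overlapping groups. A dimmer probe set of Gtf2h4 fell (-1.57 ± 0.54, adjusted p = 0.0356), but its groups overlapped. It read 4.4, 123.9, 61.2 and 74.5 units in one-cell embryos, against 286.2, 175.2, 140.3 and 100.6 units in MII oocytes. The 4.4 units of one-cell array 1 lay under the lower quartile of the whole table (9.6). Of the TFII-I relatives Gtf2ird1 read 342, 932, 874 and 815 units in one-cell embryos, against 447, 560.0, 331 and 457 units in MII oocytes. It did not pass with all arrays (0.64 ± 0.33), and without one-cell array 1, the lowest of its group, it was higher (0.97 ± 0.25, adjusted p = 0.00796). Gtf2ird2 did not pass (0.12 ± 0.49).

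Tbp itself read 327, 737, 639 and 525 units in one-cell embryos, against 567, 592, 516 and 538 units in MII oocytes. The groups overlapped and it did not pass (-0.05 ± 0.29, adjusted p = 0.927). The 95% interval of its change ran from -0.66 to 0.57, and changes within it could not be told from none.

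Among the 15 TFIID genes 2 rose, 5 fell and 8 did not pass. Taf3, whose plant homeodomain finger reads methylated histone H3, gave 958, 1844, 2062 and 1810 units on the one-cell arrays, against 258, 591, 312 and 565 units on the MII arrays. The groups did not overlap (1.96 ± 0.34, adjusted p = 0.000346), although one-cell array 1 was well below the others of its group. Taf12, a histone-fold partner of Taf4, read 314, 216, 229 and 252 units in one-cell embryos, against 59.3, 58.5, 52.7 and 89.4 units in MII oocytes, a rise of 1.82 ± 0.29 (adjusted p = 0.000173).

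The falls in TFIID were those of Taf2, Taf13, Taf8, Taf11 and Taf9b. Taf2, which meets the initiator element of the promoter, gave 74.4, 246, 239 and 125 units on the one-cell arrays, against 948, 555, 558.5 and 368 units on the MII arrays (-1.83 ± 0.38, adjusted p = 0.00143). Its other probe set did not pass (-0.51 ± 0.39), and with both averaged Taf2 changed by -1.17 ± 0.26 (adjusted p = 0.00327). Taf13 read 653, 1642, 1958.5 and 1192 units in one-cell embryos, against 5256, 2936, 4795 and 4298.5 units in MII oocytes. It fell by 1.74 ± 0.36 in log2 units (adjusted p = 0.00145), and the groups were separate. Its histone-fold partner Taf11 gave 75.1, 83.4, 117 and 105 units on the one-cell arrays, against 395, 135, 271 and 148 units on the MII arrays (-1.12 ± 0.35, adjusted p = 0.0213). The call of Taf11 was lost without MII array 1 (-0.84 ± 0.35, adjusted p = 0.0943) or 3 (-1.02 ± 0.40, adjusted p = 0.0711), and with the hybridization covariate (-0.82 ± 0.39, adjusted p = 0.142).

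Taf8, which carries Taf10 into the nucleus, gave 68.6, 76.1, 70.3 and 69.4 units on the one-cell arrays, against 424.5, 160.5, 214 and 217 units on the MII arrays. It fell by 1.61 ± 0.32 in log2 units (adjusted p = 0.00105). At this probe set one-cell array 1 read Taf8 below its own median of 71.8. A dimmer probe set fell too (-1.36 ± 0.44, adjusted p = 0.0261), but it lay above the array median on all 4 MII arrays and on only 2 one-cell arrays. Its one-cell values were 13.6, 9.3, 31.7 and 61.3 units, and that of 9.3 lay under the lower quartile of the whole table (9.6). Taf9b, a paralog of Taf9, read 1063, 2341, 2494 and 1824 units in one-cell embryos, against 3138, 4109, 3093 and 3441 units in MII oocytes, a marginal fall of 0.90 ± 0.33 (adjusted p = 0.0462). The call of Taf9b was lost after quantile normalization (-0.41 ± 0.25, adjusted p = 0.244), without any single MII array (adjusted p from 0.0741 to 0.111, changes from -0.94 to -0.81), and without one-cell array 1 (-0.64 ± 0.25, adjusted p = 0.0573) or 4 (-0.89 ± 0.38, adjusted p = 0.0965). With the hybridization covariate it was -0.44 ± 0.31 (adjusted p = 0.332), and with centred arrays -1.21 ± 0.51 (adjusted p = 0.0993).

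The paralogs Taf4 and Taf4b, the scaffold of TFIID and its form known from the mouse ovary, did not pass. Taf4 read 734, 696, 1043 and 564 units in one-cell embryos, against 1565, 703, 1217 and 1166.5 units in MII oocytes, with overlapping groups (-0.59 ± 0.31). Taf4b gave 408, 436, 521 and 310.0 units on the one-cell arrays, against 656, 620, 676 and 793 units on the MII arrays, and its groups did not overlap (-0.72 ± 0.27). Its adjusted p of 0.0500449 lay just past the threshold, and it was called lower without one-cell array 1 (-0.71 ± 0.26, adjusted p = 0.0439) or 3 (-0.83 ± 0.29, adjusted p = 0.0402) and after quantile normalization (-0.78 ± 0.27, adjusted p = 0.0437). Its other tested probe sets did not pass and differed in sign (0.49 ± 0.42 and -1.03 ± 0.44), and averaged over all 3 the change was -0.42 ± 0.24 (adjusted p = 0.219). Taf7, which holds back the enzyme activity of Taf1, read 481, 785, 588 and 459 units in one-cell embryos, against 1259, 656, 927 and 901 units in MII oocytes (-0.68 ± 0.29, adjusted p = 0.0899). Taf1 (-0.45 ± 0.31), Taf5 (-0.37 ± 0.40), Taf6 (-0.36 ± 0.31) and Taf10 (1.05 ± 0.43) completed those that did not pass.

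Of the 6 Taf genes outside TFIID 1 rose. Taf1a, a subunit of the SL1 factor that RNA polymerase I uses at ribosomal RNA genes, gave 1526, 1715, 1991 and 2171 units on the one-cell arrays, against 735, 817, 758 and 766 units on the MII arrays. The MII values were tight, the groups did not overlap, and the rise was 1.24 ± 0.26 (adjusted p = 0.00172), a call lost with centred arrays (0.93 ± 0.41, adjusted p = 0.12). The other SL1 genes Taf1b (0.59 ± 0.37) and Taf1d (0.79 ± 0.44), the paralogs Taf5l (0.76 ± 0.35) and Taf6l (0.65 ± 0.41) of the coactivator SAGA, and the RNA-binding protein gene Taf15 (0.88 ± 0.40) had positive changes that did not pass.

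**Figure D4:**
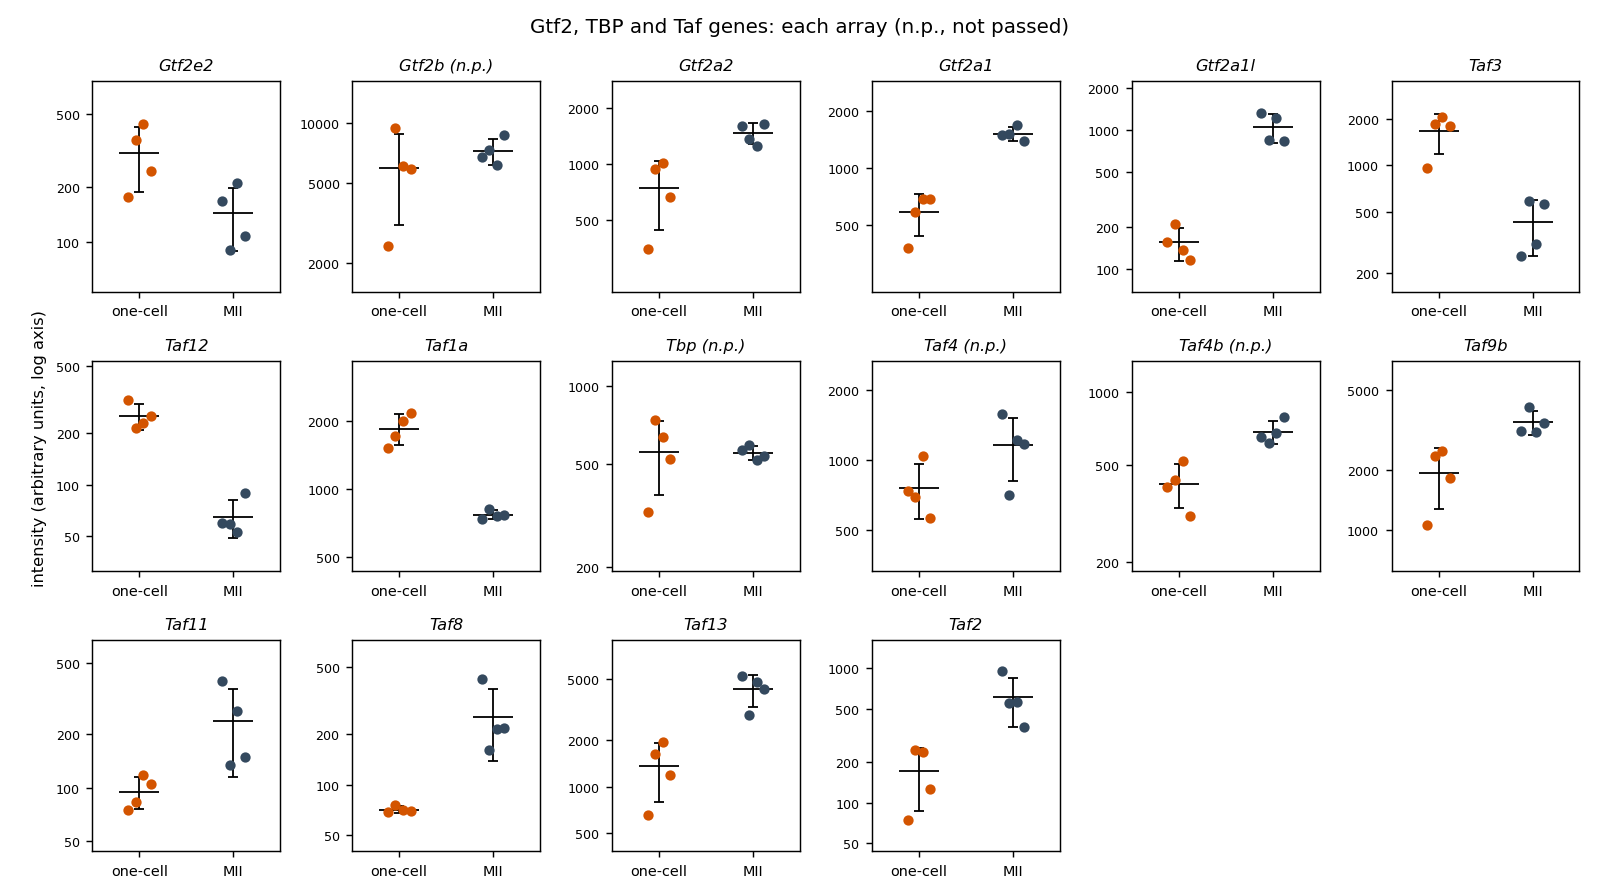
Intensity on each array (points, arbitrary units, log axes that differ between panels), with the mean and SD of 4 arrays (black), for the 12 Gtf2, TBP and Taf genes that passed the test and for Gtf2b, Tbp, Taf4 and Taf4b, which did not. The one-cell values of the TFIIA genes Gtf2a2, Gtf2a1 and Gtf2a1l lie below all MII values, and those of Taf3, Taf12 and Taf1a above them.

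The arrays did not contribute evenly to the falls. One-cell array 1 was the lowest of its group in 13 of the 17 genes that fell, and the highest in 4 of the 12 that rose. The median ratio of SD to mean was 35.2% in one-cell embryos and 23.2% in MII oocytes for the genes that fell, and 27.9% and 24.7% for those that rose. Neither these counts nor these ratios were computed over all called genes, so whether they are particular to these genes was not tested. The SD of the log2 values was larger in one-cell embryos than in MII oocytes in 20 of 30 Mediator, 11 of 13 Gtf2, and 14 of 21 TBP or Taf genes, and in 8661 of all 12359 genes. With one-cell array 1 left out, 9 of 29 Mediator genes were higher and 8 lower, and 2 of 13 Gtf2 genes higher and 3 lower. Of 21 TBP or Taf genes 4 were higher and 5 lower, beside 21.1% and 16.7% of all 11826 genes. With the hybridization controls as a covariate 9 Mediator genes were higher and 4 lower, while 17.9% of all genes were higher and 10.2% lower. Of the 29 genes called, 16 passed in the same direction under all 22 other settings (Gtf2a1, Gtf2a1l, Med8, Med9, Med11, Med12, Med17, Med20, Med21, Med26, Med27, Taf2, Taf3, Taf8, Taf12 and Taf13), and none of the 29 changed direction in any of them. The 22 are not all separate checks. The setting with current symbols could not change a call, as no member's symbol differed. Another choice of probe set could not affect the 19 called genes with 1 tested probe set. The same count was not made over all called genes.

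Genes with several probe sets did not contradict themselves by call, but many agreed only in part. Of 26 genes with more than 1 tested probe set, 0 had probe sets called in opposite directions by limma. Of the 10 called ones among them, 5 had all tested probe sets called (Med6, Med20, Med26, Med28 and Taf8). The dimmer probe set of Taf8 was above the array median on only 2 one-cell arrays. In 6 further genes the brightest probe set did not pass and another did: higher in Gtf2f1, Med1, Med19 and Med25, lower in Gtf2h4 and Med13l. Over all 100 tested probe sets 19 were higher and 22 lower, beside 19.3% and 12.8% of all tested probe sets. Another 19 called genes rest on a single tested probe set.

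**Figure D5:**
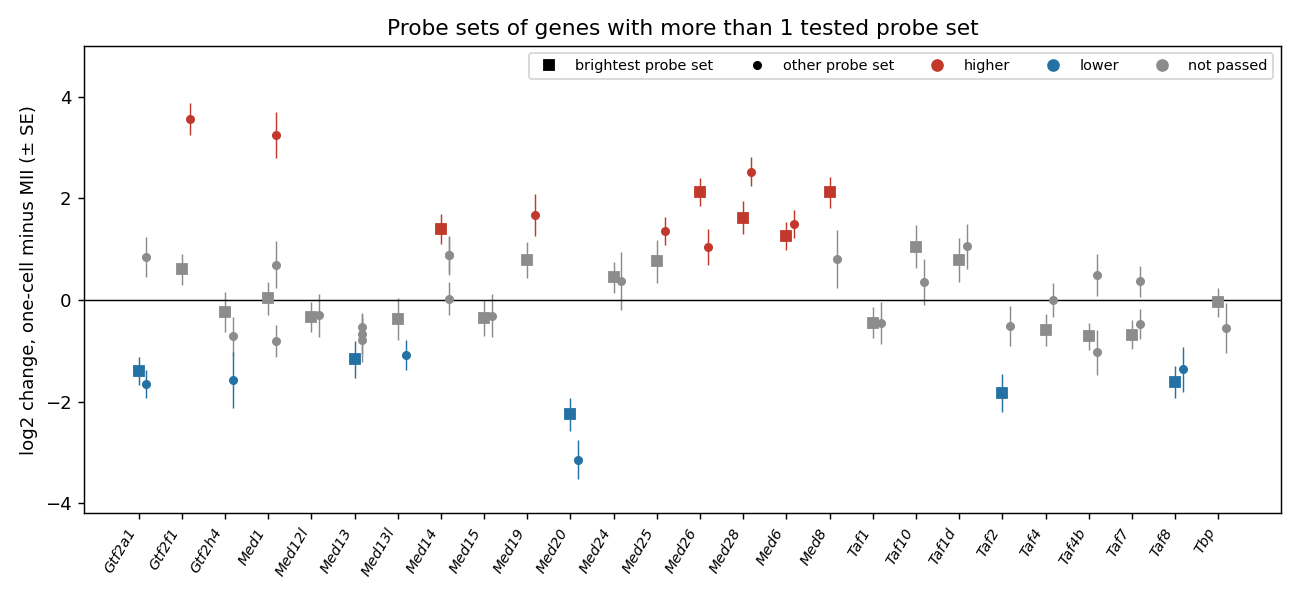
Log2 change (one-cell embryo minus MII oocyte, ± SE) of every tested probe set of the 26 genes with more than 1; squares are the brightest probe set of a gene, circles the others, and colour gives the call. Gtf2f1 and Med1 have a probe set above 3 beside a brightest one that did not pass, and the probe sets of Med20, Med26 and Med28 share their direction.

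The same machinery outside the symbol rule gave 9 rises and 7 falls among 32 tested genes on 5 lists chosen with earlier results of these data known (28.1% and 21.9%), beside 20.1% and 14.7% of all genes. Of 11 RNA polymerase II subunits 2 rose and 3 fell. Polr2b, the second-largest subunit, rose by 1.60 ± 0.34 and Polr2i by 1.33 ± 0.30, against falls of Polr2d (-1.46 ± 0.31), Polr2f (-1.60 ± 0.35) and Polr2h (-2.17 ± 0.46). Polr2h was above the array median on all 4 MII arrays but on only 1 one-cell array. Its one-cell values were 6.5, 50.9, 7.7 and 25.1 units, and those of 6.5 and 7.7 lay under the lower quartile of the whole table (9.6). Polr2a, the catalytic subunit that α-amanitin binds, did not pass (-0.59 ± 0.49). Of 5 TFIIH partners the cyclin gene Ccnh rose (1.20 ± 0.28) and the kinase gene Cdk7 fell (-0.99 ± 0.29). The helicase gene Ercc3 is also counted as higher, but it passed the filter through the one-cell arrays alone (72.9 to 130.1 units), and its MII values of 1.7 to 8.1 units lay under the lower quartile of the whole table (9.6), so no fold is given.

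Among 4 paralogs and regulators of TBP, both subunits of the TBP inhibitor NC2 rose, Drap1 by 2.62 ± 0.27 and Dr1 by 1.30 ± 0.32, and the TBP-like gene Tbpl1 fell (-1.28 ± 0.32). Drap1 averaged 815 ± 162 units in one-cell embryos and 124 ± 20.9 units in MII oocytes (SD, n = 4 each). Of 10 elongation factors Nelfe (3.04 ± 0.30), Supt6 (2.04 ± 0.28) and Supt5 (2.01 ± 0.37) rose, and Nelfb (-1.44 ± 0.41) and Cdk9 (-1.22 ± 0.34) fell.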

How the data were processed

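Polysomal RNA of 4 batches of one-cell embryos and 4 of MII oocytes was amplified and labelled with biotin, per the labels. The authors deposited linear intensities, 1 value for each probe set on each array. Neither the array software nor a genome build is given in the sources used here, so coordinates are left out. Trimmed means (lowest and highest 2% left out) were 150.0 on every array, which shows a common scaling of the deposited values. The table holds 45101 probe sets, 64 of them controls. Symbols came from the platform annotation, and those of all members are current in RefSeq's table.

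One-cell embryos were set against MII oocytes on log2(intensity + 10) using limma 3.58.1 under R 4.3.3: lmFit, then eBayes with a trend in the variance, two-sided, with Benjamini-Hochberg adjustment across 23336 probe sets. The procedure was also run on simulated data with independent noise, the same SD in both groups and no shifts between arrays. The real arrays differ in these respects, so that run does not cover the array differences described above. The members, lists and rules were chosen with earlier results of these data known. The rule for giving every array took the 8 genes of each class with the smallest p, a panel of paralogs and Tbp. Med1, Med6, Med14, Med25, Med31 and Gtf2b, given by array outside that rule, and the genes given by mean or range were picked with their values in view. Subcomplexes follow general knowledge. Alternatives changed the normalization, offset, filter, variance model, array weights, replicate block, arrays included, probe set rule, threshold, a covariate for the hybridization controls, and symbols; quantile normalization without one-cell array 1 was added after the data were seen. The number of arrays limits the precision. Same-numbered arrays did not deviate together (correlations from -0.16 to 0.14), so the numbers do not pair them.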

Additional observations from a re-analysis of the deposited data

Results flagged for a closer look

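Among the 31 genes chosen by rule, 4 of 62 groups of 4 arrays held an array far from the other 3 by Dixon's ratio on log2(intensity + 10), where chance alone flags about 1 group in 20. Of these, 3 concern one-cell array 1. Gtf2ird1 read 341.6 units there, where the other 3 gave 815 to 932. Med11 read 366.5 units, against 132.5 to 152, and Taf3 read 958.4 units, against 1810 to 2062. Med9 read 513.8 units on one-cell array 4, where the other 3 gave 255 to 283.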

How the results depend on the processing

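Of 896 recomputed values of single genes, 803 kept their direction and their side of the threshold, 72 were no longer called, 14 became called and 7 changed sign. The 803 include the values of the setting with current symbols, which could not differ from the main ones. The sign changes concern 2 genes that did not pass in any of these settings: Tbp, with 0.18 under array weights, 0.33 with the hybridization controls as a covariate, -0.20 to 0.18 with single arrays left out (positive without one-cell array 1) and 0.085 with quantile normalization and that array left out, and Med13l, with 0.093 under quantile normalization, 0.066 with the covariate and 0.37 with quantile normalization and one-cell array 1 left out. The number of Gtf2 genes called higher, 1 with the main setting, was 0 at an adjusted p under 0.01, under quantile normalization, with arrays centred on their medians, with no filter and with no variance trend, and 2 with array weights, the covariate, the mean over probe sets, or quantile normalization and one-cell array 1 left out. With centred arrays 5 of 30 Mediator genes were higher and 6 lower, beside 12.7% and 13.2% of all genes. With the covariate 4 of 30 Mediator genes and 3 of 21 TBP or Taf genes were lower, beside 10.2% of all genes. The Mediator median relative to all genes was then 0.12. At an adjusted p under 0.01, 3 of 21 TBP or Taf genes were lower, beside 8.97% of all genes. Quantile normalization gave relative medians of 0.038 for Mediator and -0.11 for Gtf2 genes, and with one-cell array 1 also left out 0.26 for Mediator and 0.21 for TBP and Taf genes. Averaged over probe sets, 4715 genes and unnamed probe sets passed, against 7493 probe sets. That setting merges the probe sets of a gene, so the 2 counts are of unlike features. By gene, 33.4% of all genes passed there, against 34.8% with the main setting. With single arrays left out, the count of Gtf2 genes called higher ran from 0 to 2, that of lower TBP or Taf genes from 3 to 6, the relative Gtf2 median from -0.43 to -0.10, and the ratio of hybridization controls from 1.84 to 4.76 (exact permutation p = 0.0286 for the last, without one-cell array 3, the smallest that 3 against 4 arrays allow). With the replicate block the counts were 8 higher and 9 lower Mediator genes, 1 and 3 Gtf2 genes and 4 and 5 TBP or Taf genes. In that setting 19.3% of all genes were higher and 14.4% lower. The cause of these differences was not tested. Dim genes limit what can be seen: 34 of 134 probe sets were not tested.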
